A study of Mus musculus with 18 samples.

Results

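The response of cntrl E0771 cells to Senexin B (SnxB), an inhibitor of the kinases CDK8 and CDK19, was taken from 3 libraries of cntrl cells in 1 µM SnxB and 3 libraries of cntrl cells in DMSO, 6 of the 18 libraries of the series. They were chosen by their labels, which name a non-targeting hairpin against Renilla luciferase. E0771 cells come from a mouse mammary tumor and serve as a model of triple-negative breast cancer. All cells had been given a lentiviral firefly luciferase under the CMV promoter with puromycin selection, and then a retroviral hairpin with an mCherry reporter on which they were sorted, so the cntrl cells carry both vectors too. Treatment with SnxB or its solvent lasted 48 h. The other 12 libraries are those of shCdk8-1 and shCdk8-2 cells, which carry hairpins against Cdk8, in DMSO or SnxB, with 3 libraries per group. The labels number the libraries but do not say whether they come from separate cultures, so p-values measure the spread between libraries, which may be technical.

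CDK8 and its paralog CDK19 sit with cyclin C, MED12 and MED13 in the kinase module of Mediator, the complex that links transcription factors to RNA polymerase II. The module can hold back or support transcription, and its kinases phosphorylate transcription factors such as SMADs. Many genes of smooth muscle and of the actin cytoskeleton are controlled by serum response factor (SRF), which binds a short AT-rich element called the CArG box. SRF is coupled to the state of the actin cytoskeleton through its cofactors MRTF-A and MRTF-B.

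The 6 cntrl libraries held 16452260 to 21978541 counts over 50686 genes, of which 12590 passed a filter on low counts and were tested. Levels are given as CPM, counts scaled by TMM to a common library size. By the library totals alone, without TMM, 3 counts correspond to 0.136 to 0.182 CPM in these libraries. Mitochondrial genes held 0.694% of the counts in SnxB replicate 1 and 0.981% to 1.44% in the other 5 libraries. SnxB replicate 1 also had the fewest genes with a count (17964, beside 18081 to 18682), and its deviation from the group mean was related to the exon length of the gene (Spearman correlation 0.333 over 12590 genes, a description, since genes do not vary independently). The same correlation was -0.254 and -0.21 in the other SnxB libraries and between -0.114 and 0.183 in DMSO. Vim, the mesenchymal filament vimentin, was at 4412 CPM in DMSO, while the epithelial genes Cdh1 and Krt8 were at 0.14 and 0.0547 CPM and Epcam had at most 2 counts in a library. Of 17 luminal markers of mammary epithelium 11 had at most 3 counts in every cntrl library, whereas Erbb2, Wfdc2 and Esr1 were at 55.1, 25.1 and 23 CPM in DMSO. In bulk RNA, fewer cells of a kind and less RNA per cell cannot be told apart.

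In cntrl cells 431 genes (3.42% of those tested) were higher in SnxB and 265 (2.10%) were lower, by the quasi-likelihood test of edgeR with an adjusted p under 0.05. Most of the changes were small, as 593 of the 696 genes changed by less than 1.5-fold and 63 by 1.5-fold to 2-fold. The remaining 40 genes (0.318%) changed more than 2-fold, 29 upward and 11 downward, and in 16 of them the mean over the 6 libraries was under 1 CPM. The median log2 fold change of all genes tested was 0.00641. The higher genes had a median level of 80.4 CPM and the lower genes one of 34 CPM, beside 32.8 CPM for all genes tested. The groups did not overlap in 692 of the 696 genes, and in 22% of all genes tested. With library totals in place of TMM scaling the share of upward changes moved from 61.9% to 48.8%. The number of genes past the adjusted p was 457 without DMSO replicate 1 and 418 without DMSO replicate 2.

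**Figure D1:**
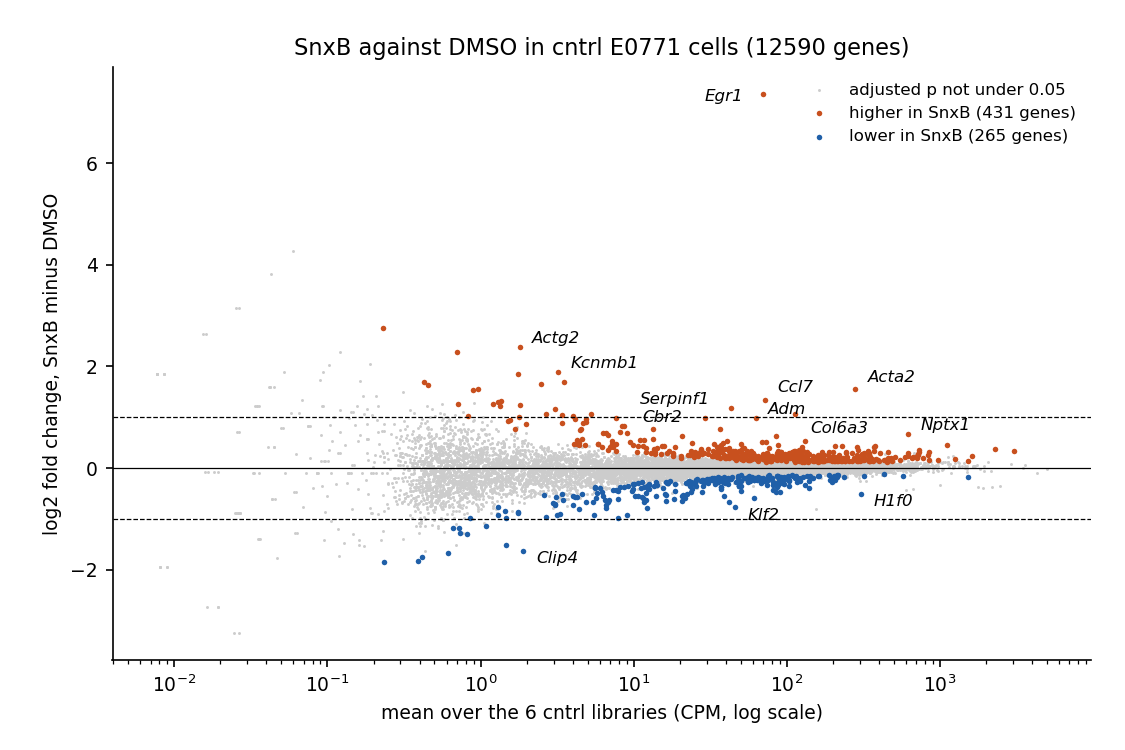
Change against level for the 12590 genes tested in cntrl cells. The x axis is the mean over the 6 libraries (CPM, log scale), the y axis the log2 fold change of SnxB minus DMSO, each point is a gene and dashed lines mark 2-fold; the 431 higher genes (orange) and 265 lower genes (blue) lie mostly inside these lines, and Egr1, at the top, rests on 1 library.

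The change with the lowest p was that of Acta2 (ENSMUSG00000035783.8, minus strand of chromosome 19 from 34241090 to 34255336 of GRCm38), which encodes alpha smooth muscle actin. It was at 133, 147 and 144 CPM in DMSO and at 419, 425 and 408 CPM in SnxB. All SnxB libraries were far above all DMSO libraries, and the spread within each group was small. The means were 141 ± 7.83 CPM in DMSO and 417 ± 8.32 CPM in SnxB (SD, n = 3), with a log2 fold change of 1.56 (SE 0.0414, adjusted p = 2.11e-12) that stayed between 1.52 and 1.59 with each library left out.

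Other genes of contractile cells rose from low levels. Actg2, the gamma actin of enteric smooth muscle, was at 0.429, 0.486 and 0.78 CPM in DMSO and at 2.39, 3.38 and 3.32 CPM in SnxB (5.23-fold; log2 fold change 2.39, SE 0.31, adjusted p = 0.00022). Per exon length, Acta2 went from 79.4 to 234 RPKM and Actg2 from 0.363 to 1.95 RPKM, so Acta2 was by far the more abundant of these actin mRNAs. Actin genes are near-identical in sequence and reads that map to several places were left out by the counting, so the values of each are uncertain to that extent. Kcnmb1, the beta 1 subunit of the large-conductance potassium channel of smooth muscle, was at 1.29, 1.4 and 1.37 CPM in DMSO and at 5.82, 4.21 and 5.16 CPM in SnxB (log2 fold change 1.89, SE 0.16, adjusted p = 4.07e-06). Myl9, a regulatory light chain of myosin, was at 1.84, 1.84 and 1.32 CPM in DMSO and at 4.35, 5.97 and 5.72 CPM in SnxB (log2 fold change 1.70, SE 0.17, adjusted p = 2.31e-05). In these genes too, every SnxB library was above every DMSO library.

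**Figure D2:**
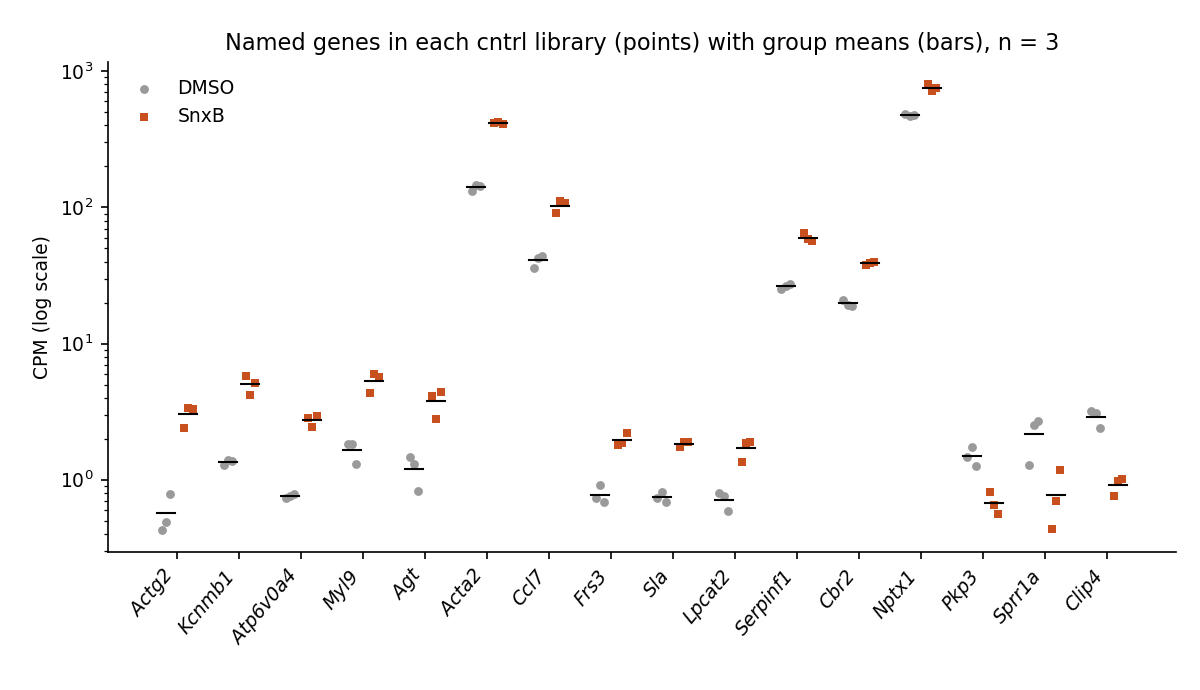
Genes with the largest changes whose groups are separate and whose mean reaches 1 CPM, together with those of lowest p, ordered by log2 fold change. Points are the 3 DMSO (grey) and 3 SnxB (orange) cntrl libraries in CPM on a log scale and bars are group means; Acta2, Ccl7, Serpinf1, Cbr2 and Nptx1 are the well expressed genes among them, and the other genes lie under 10 CPM.

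In a list of 23 smooth muscle, actin-binding and SRF pathway genes, 18 were tested and 13 were higher in SnxB, 72.2% against 3.42% of all genes tested, while 0 were lower. Like the other lists, this one was chosen with earlier results of these data known, so its share is a description. The median log2 fold change of the list was 0.286, and the number of higher members was 10 to 13 with each library left out (10 without SnxB replicate 1). Cnn2, calponin 2, was at 171, 172 and 182 CPM in DMSO and at 234, 237 and 238 CPM in SnxB (log2 fold change 0.43, SE 0.0321, adjusted p = 8.62e-07). The tropomyosin genes Tpm1 and Tpm2 rose by 0.30 and 0.29 on the log2 scale (adjusted p = 7.1e-05 and 0.000787). Srf itself was at 120.4, 124 and 116 CPM in DMSO and at 149, 150.1 and 151 CPM in SnxB (log2 fold change 0.32, adjusted p = 0.000216), with no overlap between the groups. Vcl, which encodes the adhesion protein vinculin, and Csrp1, Cald1, Actn1, Smtn and Flna made up the rest of the 13.

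The remaining members give the limits of this list. The cofactor genes Mrtfa and Mrtfb had log2 fold changes of -0.01 and 0.03 (adjusted p = 0.932 and 0.887), and Mylk, the myosin light chain kinase, one of -0.05 (adjusted p = 0.833). Genes that mark differentiated smooth muscle were at or near 0, with at most 4 counts of Tagln, 2 of Cnn1 and 2 of Myh11 in any of the 6 libraries. The summed level of the list was 5453 to 5517 CPM in the DMSO libraries and 6660 to 7519 CPM in the SnxB libraries.

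Genes outside the list with known roles in actin dynamics were named after their values were seen and are no complete account of such genes. Cotl1, an actin-binding protein of the coactosin family, was at 68.3, 63.3 and 66.4 CPM in DMSO and at 105, 98.4 and 104 CPM in SnxB (log2 fold change 0.64, adjusted p = 3.39e-07). Dstn and Wdr1, which take part in filament disassembly, rose by 0.37 and 0.32 on the log2 scale, and Lima1, Pdlim5 and Pdlim7, which encode LIM domain proteins, by 0.43, 0.42 and 0.32. Myo18b, an unconventional myosin, rose from 2.79 to 5.47 CPM and Tgfb1i1, a focal adhesion protein, from 8.83 to 13 CPM. In the other direction, Ablim1, which encodes an actin-binding LIM protein, was at 24.7, 25.3 and 24 CPM in DMSO and at 18.5, 16.7 and 15.6 CPM in SnxB (log2 fold change -0.54, SE 0.0754, adjusted p = 0.000396), and Tns2, a tensin of focal adhesions, fell from 147 to 117 CPM (log2 fold change -0.33, adjusted p = 0.00135). Myh9, the main non-muscle myosin heavy chain, had a log2 fold change of 0.24 that did not pass the test (adjusted p = 0.125).

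Promoter stretches of smooth muscle list members are shown because the CArG box is the element through which SRF acts. The windows searched run from 250 bases before to 50 bases after the annotated start, are taken from RefSeq on GRCm38.p6, and were read for the exact box, whose pattern is the same on both strands. A box was found in 1.63% of all 32851 windows, and in 1.49% of the 9346 tested genes with a window. Of the 17 tested list members with a window, 4 had one, namely Myl9, Cnn2, Srf (with 2) and Vcl. The list was made to hold SRF targets, so boxes in it are no result about the response to SnxB. The Acta2 window had no exact box, but 2 elements in which 1 letter of the core is C or G, a looser pattern present in 8.5% of all windows and in 3 of these 17 members. A match describes letters and is no measurement of binding. Actg2 had no window. The looser elements of Acta2 lie 84 and 34 bases before the start in RefSeq. That start differs from the one in the gene bounds given above, so these distances depend on the annotation. In the stretches that follow, written 5′ to 3′ on the strand of the gene, capitals mark the box, or for Acta2 the looser elements.
Acta2, chr19:34255358-34255497, minus strand: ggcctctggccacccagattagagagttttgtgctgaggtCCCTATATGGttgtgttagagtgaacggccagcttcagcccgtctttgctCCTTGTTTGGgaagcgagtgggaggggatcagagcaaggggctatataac
Myl9, chr2:156775263-156775352, plus strand: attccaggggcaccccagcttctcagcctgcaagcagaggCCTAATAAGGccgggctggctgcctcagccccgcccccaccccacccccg
Cnn2, chr10:79988504-79988593, plus strand: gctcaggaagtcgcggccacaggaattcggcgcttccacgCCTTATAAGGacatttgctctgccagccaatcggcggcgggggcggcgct
Srf, chr17:46556175-46556284, minus strand: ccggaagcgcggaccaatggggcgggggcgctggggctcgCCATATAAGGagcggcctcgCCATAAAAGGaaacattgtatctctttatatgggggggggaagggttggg
Vcl, chr14:20929148-20929220, plus strand: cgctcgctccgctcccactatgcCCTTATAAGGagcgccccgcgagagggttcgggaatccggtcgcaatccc

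Windows were found for 75.9% of the higher genes and 77% of the lower genes, under the 80% needed to compare shares between them, so that comparison is void. The higher genes outside the list whose window held a box were Cbr2, Eml1, Fermt2, Filip1l, Ldb3, Lgr4, Lima1, Rnd3, Rsu1 and Tyw1. The lower gene whose window held a box was Ubxn6. No excess of boxes in either direction can be read from these names.

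Among the genes with the largest changes or the lowest p, 4 that encode secreted proteins were higher in SnxB. Ccl7, a chemokine that attracts monocytes, was at 36.1, 42.7 and 43.9 CPM in DMSO and at 91.6, 111 and 107 CPM in SnxB (2.51-fold; log2 fold change 1.33, SE 0.0775, adjusted p = 4.53e-08). Ccl2, which encodes a related chemokine, was at 63.5 ± 4.35 CPM in DMSO and 69.9 ± 5.61 CPM in SnxB (SD, n = 3) and did not pass (edgeR adjusted p = 0.311). Of 8 chemokine genes tested, Ccl7 was the 1 that passed (12.5%, beside 3.42% of all genes tested that were higher). Serpinf1, which encodes the secreted factor PEDF, was at 25.3, 26.4 and 27.5 CPM in DMSO and at 65.1, 58.8 and 56.4 CPM in SnxB (log2 fold change 1.18, SE 0.0625, adjusted p = 2.06e-08). Nptx1, neuronal pentraxin 1, was at 482, 473 and 481 CPM in DMSO and at 801, 720.3 and 751 CPM in SnxB (log2 fold change 0.66, SE 0.0373, adjusted p = 4.02e-08). Agt, the precursor of angiotensin, was at 1.47, 1.3 and 0.829 CPM in DMSO and at 4.13, 2.78 and 4.39 CPM in SnxB (3.16-fold, adjusted p = 0.00022). In Ccl7, Serpinf1, Nptx1 and Agt every SnxB library was above every DMSO library.

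Other genes named by the size or the p of their change were also higher in SnxB. Cbr2, a carbonyl reductase, was at 21, 19.2 and 18.9 CPM in DMSO and at 38.1, 38.9 and 39.4 CPM in SnxB, just under 2-fold (log2 fold change 0.98, SE 0.0513, adjusted p = 2.06e-08). Atp6v0a4, a subunit of the proton pump of acid-secreting cells, was at 0.736, 0.756 and 0.78 CPM in DMSO and at 2.83, 2.45 and 2.96 CPM in SnxB (3.59-fold, adjusted p = 4.01e-05). In both genes the groups were well separated. The adaptor genes Frs3 and Sla rose 2.49-fold and 2.48-fold, and Lpcat2, an enzyme of phospholipid remodeling, 2.41-fold, each from under 1 CPM. Chosen after their values were seen, Prdm1, a transcriptional repressor, rose from 3.44 to 7.15 CPM and Sgk1, a kinase induced by serum and glucocorticoids, from 107 to 154 CPM (adjusted p = 6.07e-05 and 2.35e-07).

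The 11 genes that fell more than 2-fold had low levels, at most 2.89 CPM in DMSO. Clip4, which encodes a protein with microtubule-binding CAP-Gly domains, was at 3.19, 3.08 and 2.39 CPM in DMSO and at 0.761, 0.972 and 1.02 CPM in SnxB (log2 fold change -1.63, SE 0.229, adjusted p = 0.000429). Sprr1a, a precursor of the cornified envelope of skin, was at 1.29, 2.54 and 2.68 CPM in DMSO and at 0.435, 0.694 and 1.18 CPM in SnxB (log2 fold change -1.51, adjusted p = 0.00985). Pkp3, a desmosomal plakophilin, was at 1.47, 1.73 and 1.27 CPM in DMSO and at 0.816, 0.648 and 0.562 CPM in SnxB (log2 fold change -1.14, adjusted p = 0.0214). The groups did not overlap in these 3 genes, and the other 8 had means under 1 CPM over the 6 libraries. With each library left out in turn, 20 of the 29 genes that rose more than 2-fold and 1 of the 11 that fell, Clip4, stayed past the adjusted p each time. Sprr1a lost the call without DMSO replicate 2 or 3 (adjusted p up to 0.063), and Pkp3 without DMSO replicate 1 or 2 or SnxB replicate 2 or 3 (up to 0.104).

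Better expressed genes fell by less than 2-fold. Klf2, a transcription factor known from endothelium and resting T cells, was at 57.9, 58.3 and 57.6 CPM in DMSO and at 33.2, 34.2 and 34.2 CPM in SnxB (log2 fold change -0.77, SE 0.095, adjusted p = 0.000129). The replicates were close to each other and the groups far apart. Dhrs9, a retinol and steroid dehydrogenase, fell from 51.2 to 32.2 CPM and H1f0, a linker histone of resting cells, from 359 to 252 CPM (adjusted p = 4.48e-07 and 1.49e-06; both named after their values were seen). Mt2, a metallothionein, fell from 224 to 191 CPM (adjusted p = 0.00436). S100a6, a calcium-binding protein and the changed gene with the highest level per exon length, went from 1189 to 1051 RPKM (adjusted p = 0.0387), a call lost without DMSO replicate 1, 2 or 3 or SnxB replicate 1 or 3 (adjusted p up to 0.132).

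**Figure D3:**
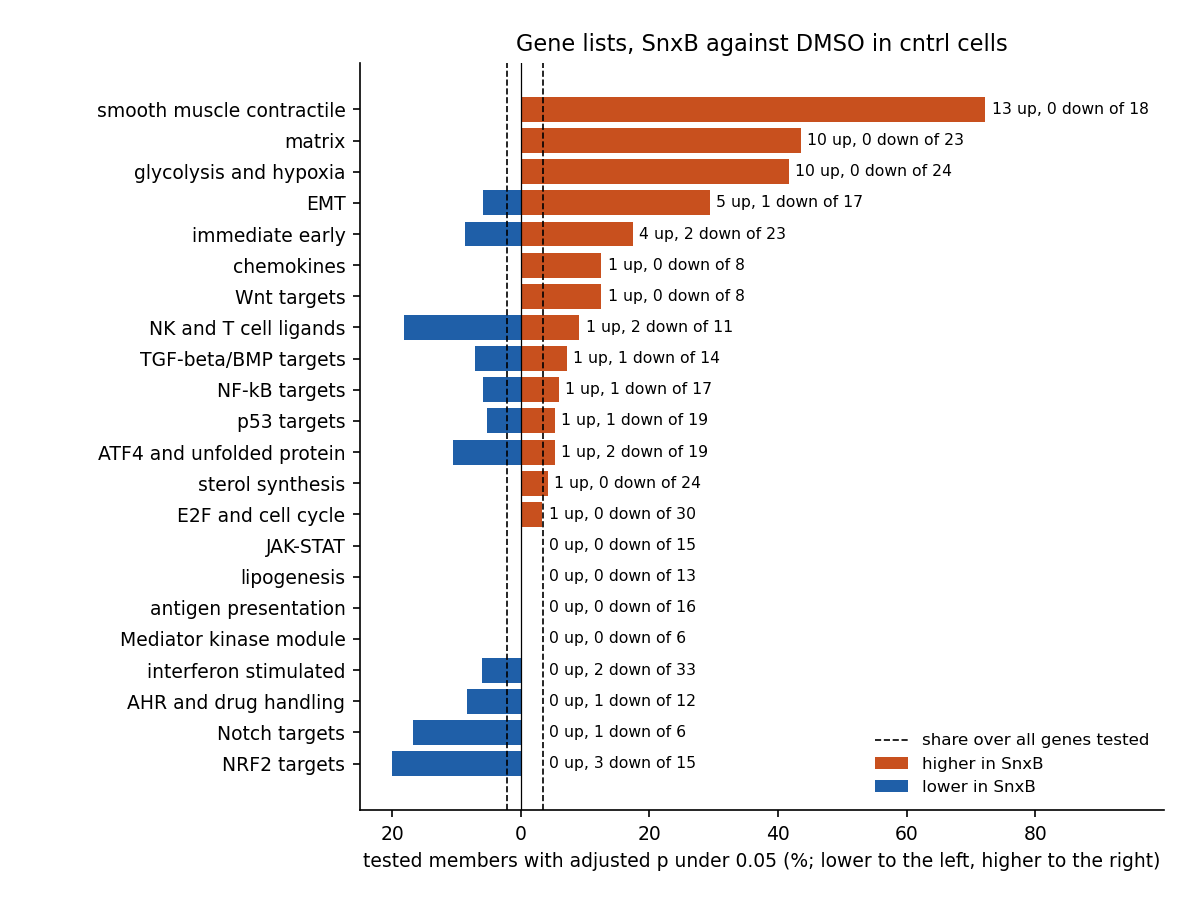
Share of the tested members of each gene list, cell type markers left out, with an adjusted p under 0.05 (%), higher in SnxB to the right and lower to the left, with the counts beside the bars. Dashed lines mark the share over all genes tested (3.42% higher, 2.10% lower); among them the smooth muscle, matrix and glycolysis lists reach farthest to the right, with 13 of 18, 10 of 23 and 10 of 24 members higher and 0 lower.

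Of 23 tested genes of collagens and matrix glycoproteins 10 were higher in SnxB (43.5%, beside 3.42% of all genes tested) and 0 lower, with a median log2 fold change of 0.261. Genes of all 3 main collagen VI chains were among them. Col6a1 rose from 942 to 1292 CPM (adjusted p = 2.31e-05), and Col6a2 from 321 to 432 CPM (adjusted p = 1.74e-05). Col6a3 was at 81.6, 67.8 and 71 CPM in DMSO and at 209, 117 and 137 CPM in SnxB (log2 fold change 1.07, SE 0.169, adjusted p = 0.00113), with SnxB replicate 1 well above the others. Its log2 fold change ranged from 0.79 to 1.23 with each library left out. Thbs2, which encodes the matrix glycoprotein thrombospondin 2, was at 1.6, 2.81 and 2.15 CPM in DMSO and at 5.38, 3.93 and 4.49 CPM in SnxB (log2 fold change 1.05, adjusted p = 9e-04). Fbn1, fibrillin 1 of elastic microfibrils, rose from 3.4 to 6.33 CPM and Col3a1, a fibrillar collagen, from 1978 to 2580.3 CPM. Col4a1, Col4a2, Fbln2 and Sparc completed the 10. Without SnxB replicate 1, the library whose deviation was related to gene length, 6 matrix genes were higher and 1 was lower; with a correction for length in the fit, 10 were higher.

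Markers of other cell types moved with these genes in part. Of 12 fibroblast markers 8 were tested and 4 were higher (Col3a1, Pdgfra, Pdgfrb and Dpt; 3 without SnxB replicate 1), with summed levels of 2710 to 2788 CPM in DMSO and 3308 to 3681 CPM in SnxB. Pdgfrb lost the call without DMSO replicate 1, 2 or 3 or SnxB replicate 1 (adjusted p up to 0.0867). The fibroblast marker Fap had 0 counts in all 6 libraries. Of 12 basal or myoepithelial markers 3 were tested and Acta2 and Actg2 were higher, with summed levels of 191.2 to 202.5 CPM in DMSO and 464.1 to 481 CPM in SnxB, while Krt5 and Krt14 had 0 counts. Of 17 luminal markers 7 were tested and Wfdc2 fell from 25.1 to 16.1 CPM (adjusted p = 0.000252), with summed levels of 103.9 to 110.6 CPM in DMSO and 90.7 to 102 CPM in SnxB. Of 10 endothelial markers 4 were tested and Cdh5, VE-cadherin, fell from 4.32 to 2.31 CPM (adjusted p = 0.00104), while Tek, Emcn and Cldn5 had 0 counts. Macrophage markers summed to 5.926 to 9.02 CPM and 0 of the 3 tested passed edgeR's or DESeq2's test (1 at an unadjusted p under 0.05). Lymphocyte markers summed to 0.4388 to 0.8699 CPM, and 0 of the 12 were high enough to be tested. Fabp4, a fatty acid binding protein, rose from 652 to 785 CPM, and the other 6 adipocyte markers had 0 counts. The part of any such cells in the results was not tested.

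Genes of glycolysis and the hypoxia response rose by small steps, 10 of 24 tested members (41.7%, beside 3.42% of all genes tested). The list had 0 members lower and a median log2 fold change of 0.108. Adm, adrenomedullin, a vasodilator peptide induced by hypoxia, changed most. It was at 40.3, 42.4 and 43.4 CPM in DMSO and at 78.6, 88.6 and 82.9 CPM in SnxB (log2 fold change 0.99, SE 0.0576, adjusted p = 4.53e-08). Slc16a3, the lactate exporter MCT4, rose from 328 to 413 CPM, Egln3, an oxygen sensor that acts on HIF, from 96.8 to 119.8 CPM and Pfkp, a phosphofructokinase, from 310.5 to 379.7 CPM. Tpi1, Ndrg1, Slc2a1, Pfkl, Bnip3 and Eno1 were the others. Other known HIF targets did not pass the test: Vegfa had a log2 fold change of 0.01 (adjusted p = 0.955), Hk2 one of 0.01 (adjusted p = 0.969) and Car9 one of -0.53 (adjusted p = 0.405). With SnxB 3 members of the list were higher in shCdk8-1 cells and 3 in shCdk8-2 cells. Over all genes tested 1.48% and 2.05% passed there in either direction. The list medians were 0.0253 and 0.0402 in these lines, and Adm, Ndrg1 and Pfkp were higher in all 3 lines.

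Of 17 tested genes of epithelial-mesenchymal transition 5 were higher and 1 was lower (29.4% and 5.88%, beside 3.42% and 2.10% of all genes tested). The median log2 fold change of the list was 0.044. Its summed level was 5458 to 5645 CPM in the DMSO libraries and 5211 to 5415 CPM in the SnxB libraries, thus lower in SnxB. Most of that sum in DMSO came from Vim. With SnxB 0 members were higher in shCdk8-1 or shCdk8-2 cells, and 1 was lower in shCdk8-2 cells. The transcription factor genes Twist2 and Twist1 rose from 76.7 to 97.6 CPM and from 49 to 57.4 CPM (adjusted p = 9.77e-05 and 0.00771), and the protease gene Mmp2 from 13.1 to 17.7 CPM, with Zeb1 and Zeb2 the others. Mmp3, stromelysin, fell from 99.1 to 71.2 CPM (adjusted p = 0.00244). Snai2, a repressor of epithelial genes, was at 1.6, 1.62 and 1.85 CPM in DMSO and at 1.41, 1.25 and 0.919 CPM in SnxB and did not pass (log2 fold change -0.51, SE 0.249, adjusted p = 0.296). Mmp9, a gelatinase, was at 9.93 ± 0.569 CPM in DMSO and 9.56 ± 0.494 CPM in SnxB (SD, n = 3) with an adjusted p of 0.83 in the same edgeR test.

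Among 23 tested immediate early genes, which growth factors induce within minutes, 4 passed the test upward and 2 downward (17.4% and 8.7%). Over all genes tested the shares were 3.42% and 2.10%. Egr1 is one of the 4 and rests on 1 library. Its counts were 10, 22 and 15 in DMSO and 7, 8937 and 16 in SnxB, so that it was at 0.614, 1.19 and 0.731 CPM in DMSO and at 0.381, 414 and 0.817 CPM in SnxB. Without SnxB replicate 2 its log2 fold change turned from 7.35 to -0.48 (adjusted p = 0.636), and the call was also lost without any 1 of the DMSO libraries. Egr1 was the 1 gene that stood so far apart in any of the 6 libraries, and Egr3, Fosb, Jun, Atf3 and Ier2 were not raised in SnxB replicate 2. Jund, an AP-1 subunit, was at 119, 118 and 113 CPM in DMSO and at 87.7, 94.1 and 92.4 CPM in SnxB (adjusted p = 0.0037), and Klf2 was the other that fell. Dusp4, a phosphatase of MAP kinases, rose from 183 to 214 CPM, and Ier3 and Dusp6 also passed upward.

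**Figure D4:**
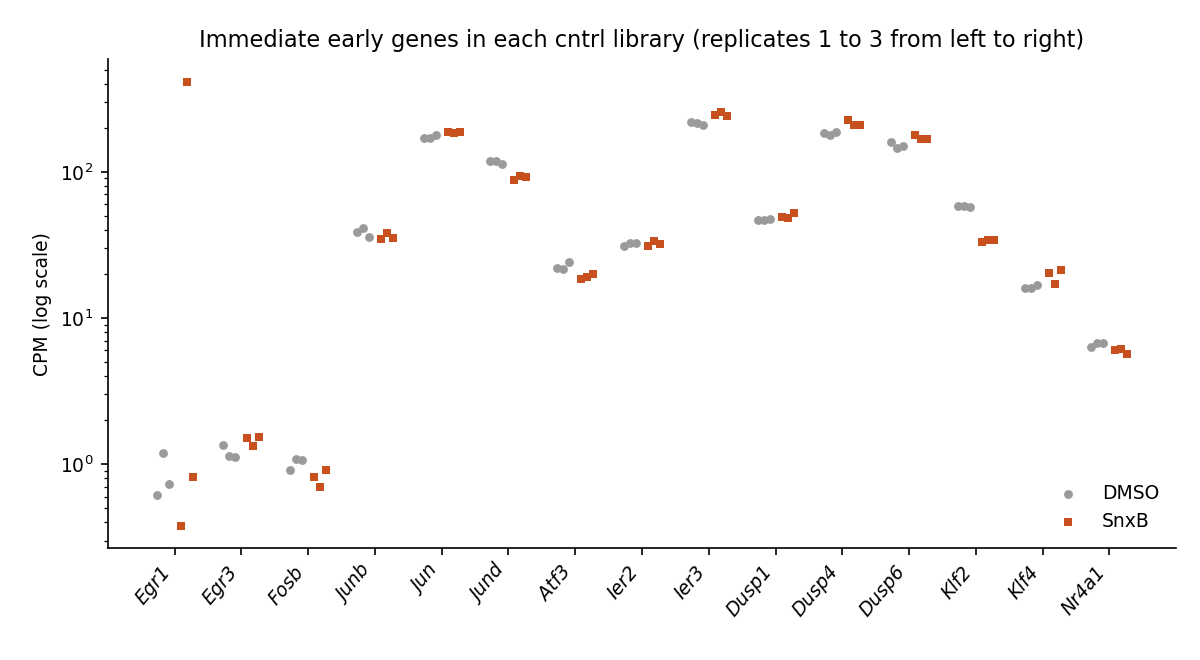
Immediate early genes in the 3 DMSO (grey) and 3 SnxB (orange) cntrl libraries, in CPM on a log scale, each point a library in replicate order. Egr1 is at 414 CPM in SnxB replicate 2 and at 0.381 to 1.19 CPM in the other 5 libraries, while Klf2 and Jund are lower in all 3 SnxB libraries.

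Of 33 interferon-stimulated genes tested 0 were higher and 2 were lower (6.06%, beside 2.10% of all genes tested). They were Herc6 and Ddx58 (log2 fold changes -0.32 and -0.26, adjusted p = 0.0354 and 0.0412), and both lost the call without DMSO replicate 1, 2 or 3 or SnxB replicate 2 or 3 (adjusted p up to 0.151 and 0.166). The median of the list was -0.131. Of 16 antigen presentation genes and of 15 JAK-STAT genes 0 passed edgeR's or DESeq2's test, with 4 in each list at an unadjusted p under 0.05. H2-K1 and H2-D1, the classical MHC class I genes, had log2 fold changes of -0.09 (SE 0.0428, adjusted p = 0.258) and -0.04 (SE 0.0301, adjusted p = 0.582), with counts that are uncertain because of similar family members.

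Among ligands read by NK and T cells, 2 of 11 tested genes fell and 1 rose (18.2% and 9.09%, beside 2.10% and 3.42% of all genes tested). Pvr, a ligand of the activating receptor DNAM-1, was at 138, 129.5 and 134 CPM in DMSO and at 118, 107 and 109 CPM in SnxB, and Lgals9, galectin 9, was at 75.2, 74.9 and 81.1 CPM in DMSO and at 64.9, 66 and 62.8 CPM in SnxB (adjusted p = 0.00161 and 0.00177). Clec2d, the ligand of an inhibitory NK receptor, was at 8.1, 10.4 and 9.8 CPM in DMSO and at 14.7, 13.1 and 14.2 CPM in SnxB (adjusted p = 0.0056). In each of the 3 genes the groups did not overlap. Cd274, which encodes PD-L1, was at 4.97, 6.15 and 5.71 CPM in DMSO and at 5.22, 4.86 and 5.41 CPM in SnxB (log2 fold change -0.13, SE 0.136, adjusted p = 0.697). Raet1d, a ligand of NKG2D, had a log2 fold change of -0.15 (SE 0.0579, adjusted p = 0.154) and Icam1, an adhesion molecule, one of 0.03 (SE 0.221, adjusted p = 0.969). A p that misses the threshold does not show that these levels are equal.

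The remaining lists had at most 3 calls each, and the shares of the smaller ones rest on 1 gene. Over all genes tested 3.42% were higher and 2.10% lower, and 1 call in a direction is no result about a list. Nrarp, a feedback inhibitor of Notch, fell from 14.3 to 9.02 CPM (adjusted p = 0.000407), 1 of 6 Notch genes (16.7%). Of 15 genes of the NRF2 stress response 0 rose and 3 fell (20%, beside 2.10% of all genes tested), with Osgin1, Hmox1 and Srxn1 down by 0.32, 0.21 and 0.16 on the log2 scale. Hmox1 lost the call without DMSO replicate 2 or 3 or SnxB replicate 2 (adjusted p up to 0.0666), and Srxn1 without DMSO replicate 1 or 3 or SnxB replicate 2 or 3 (up to 0.0799). Myc, 1 of 8 Wnt targets (12.5%), rose from 324 to 378 CPM (adjusted p = 0.00447). Plk2, a p53 target, rose from 106 to 136 CPM, and Cdkn1a, which encodes the cell cycle inhibitor p21, fell from 44.8 to 38.3 CPM, the others of 19 p53 targets not passing (5.26% in each direction). The Cdkn1a call was lost without DMSO replicate 1 or 3 or SnxB replicate 2 (adjusted p up to 0.0791). Abcc3, a drug efflux pump, fell from 56.1 to 44.1 CPM, 1 of 12 genes of drug handling (8.33%), and Tnfaip2, 1 of 17 NF-kB targets to rise (5.88%), rose from 168 to 201 CPM.

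Several calls in these lists depended on single libraries. Ccne1, cyclin E1, was 1 of 30 cell cycle genes to rise (3.33%, beside 3.42% of all genes tested). It lost the call without DMSO replicate 1 or 2 or SnxB replicate 2 (adjusted p up to 0.0916). Ccn2, of the 14 TGF-beta and BMP targets, was higher, a call lost without any 1 of the 6 libraries (adjusted p up to 0.154). Lif, a cytokine of the NF-kB list, was lower and lost the call without DMSO replicate 1 or 3 or SnxB replicate 1, 2 or 3 (up to 0.168). Of 19 genes of ATF4 and the unfolded protein response Ero1l was higher, lost without DMSO replicate 2 (up to 0.0516), Trib3 was lower, and Atf4 was lower, lost without DMSO replicate 1, 2 or 3 or SnxB replicate 2 or 3 (up to 0.111). Of 13 lipogenic genes 0 passed edgeR's or DESeq2's test, with 2 at an unadjusted p under 0.05.

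The mRNAs of the targets of SnxB did not pass the test. Cdk8 was at 58.3, 54.5 and 54.8 CPM in DMSO and at 53.3, 53.8 and 57.1 CPM in SnxB (log2 fold change -0.03, SE 0.0597, adjusted p = 0.86), with overlapping groups. Cdk19 was at 93.6, 93.2 and 93 CPM in DMSO and at 102, 100.4 and 94.8 CPM in SnxB (log2 fold change 0.09, SE 0.0367, adjusted p = 0.222). Of the 6 kinase module genes tested, Ccnc, Med12 and Med13 among them, 0 passed edgeR's or DESeq2's test, with 1 at an unadjusted p under 0.05.

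The genes called in cntrl cells were then looked up in shCdk8-1 and shCdk8-2 cells, whose SnxB libraries have no part in the cntrl comparison and whose DMSO libraries enter it through the gene filter, the scaling and the estimate of the spread. The level of Cdk8, the target of the hairpins, was 21.4 ± 2.44 and 23.1 ± 2.57 CPM in shCdk8-1 cells and 38.9 ± 0.376 and 39.5 ± 2.57 CPM in shCdk8-2 cells, each in DMSO and SnxB (SD, n = 3). In a fit of all 18 libraries with 12772 genes tested, 189 genes (1.48%) passed the test for SnxB in shCdk8-1 cells and 262 (2.05%) in shCdk8-2 cells. With each library left out the first count was 112 to 443, the highest without shCdk8-1 SnxB replicate 1, and it fell to 123 or fewer without shCdk8-1 DMSO replicate 1 or SnxB replicate 2 or 3. The second count was 141 to 302, and 163 or fewer without any 1 of the 6 shCdk8-2 libraries. Of the 694 cntrl genes with a value there, 596 (85.9%) had the same direction in shCdk8-1 cells and 648 (93.4%) in shCdk8-2 cells. Of these 694 genes, 116 (16.7%) and 168 (24.2%) passed the test, 115 and 168 of them in the cntrl direction. In all 3 lines 87 genes passed in the same direction, 56 higher and 31 lower. The smooth muscle list gave 8 of these, Acta2, Actg2, Cnn2, Csrp1, Myl9, Srf, Tpm1 and Tpm2. The matrix list gave 0, with 2 members higher and 1 lower in shCdk8-1 cells and 4 higher and 1 lower in shCdk8-2 cells, and the difference between the lists was not tested. Klf2, Jund, Pvr, Lgals9, Dhrs9, H1f0 and Wfdc2 were among those lower in all 3 lines.

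The median change along the cntrl direction was 0.102 in shCdk8-1 and 0.138 in shCdk8-2 cells, beside 0.267 in cntrl cells, on the log2 scale. As the genes were chosen on the cntrl libraries, a smaller median elsewhere is a description, and the difference itself was tested by an interaction term. By that test 39 genes (0.305%) differed between shCdk8-1 and cntrl cells and 7 (0.0548%) between shCdk8-2 and cntrl cells. Of these, 33 and 6 were among the cntrl genes, each with a smaller or opposite response in the knockdown line on the log2 scale. These genes were called on cntrl libraries that also enter the interaction. That choice favors this direction, so the direction is a description. With each library left out the 39 and 7 genes ranged from 13 to 42 and from 1 to 10, the lowest without cntrl DMSO replicate 2 and without shCdk8-2 DMSO replicate 1 or 2. Both tests use the same cntrl libraries. Acta2 rose by 1.25 in shCdk8-1 and 1.01 in shCdk8-2 cells, beside 1.56 in cntrl cells (interaction adjusted p = 0.0445 and 0.000675). Cbr2 rose by 0.36 and 0.47, beside 0.98 (interaction adjusted p = 0.000796 and 0.0177), and its level in DMSO was 49.5 and 40.01 CPM in these lines, beside 19.7 CPM. Ereg, the EGF family ligand epiregulin, had log2 fold changes of -0.02 and -0.01 in the knockdown lines, beside 0.42 in cntrl cells (interaction adjusted p = 0.0125 and 0.0304). Actg2 rose by 2.37 (SE 0.352) and 1.78 (SE 0.191), beside 2.39 (SE 0.276), and its interaction did not pass the test (adjusted p = 0.998 and 0.919).

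**Figure D5:**
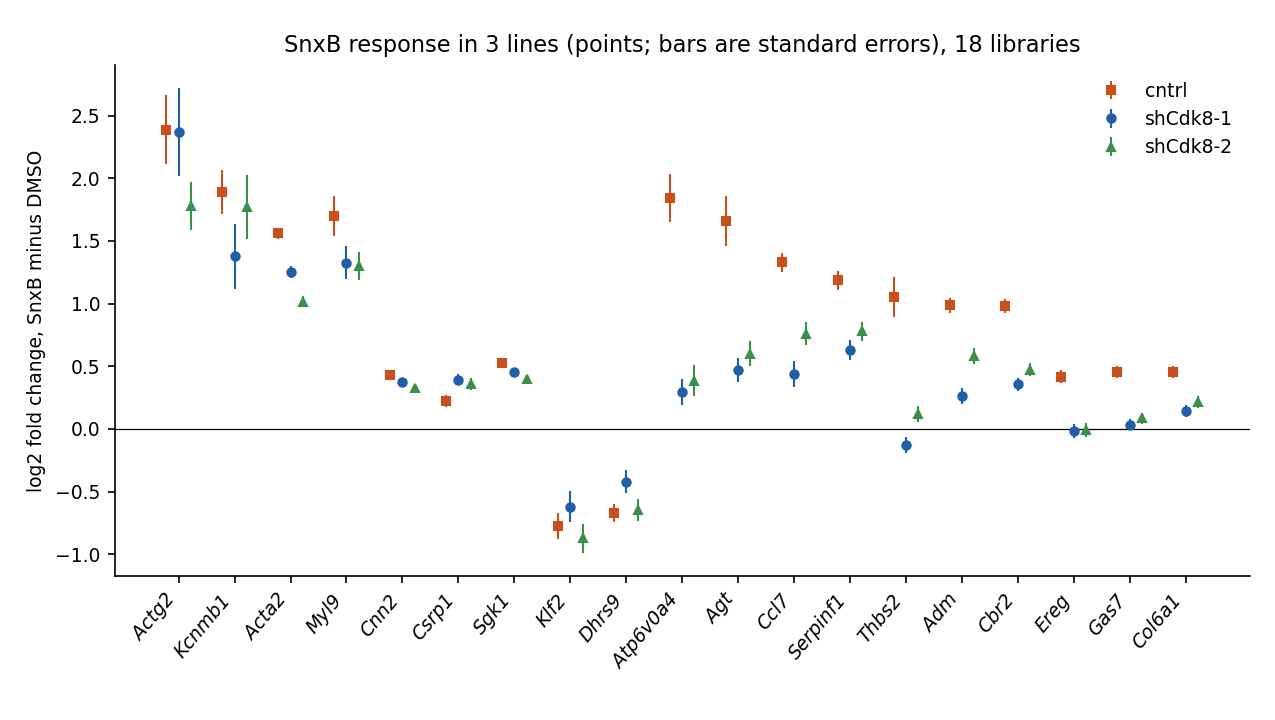
Log2 fold change of SnxB minus DMSO (y axis) for named genes in cntrl (orange), shCdk8-1 (blue) and shCdk8-2 (green) cells from the fit of 18 libraries, with bars for standard errors. Actg2, Kcnmb1, Acta2 and Myl9 are above 1 in all 3 lines, while Ereg and Gas7 are near 0 in both knockdown lines.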

How the data were processed

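RNA-seq counts were taken for cntrl, shCdk8-1 and shCdk8-2 E0771 cells in DMSO or SnxB, 3 libraries per group. Per the file headers and the methods of the study, the authors trimmed reads (Trimmomatic), aligned them to GRCm38 (STAR) and deposited raw read counts per gene from featureCounts 1.5.1 with the reverse-stranded setting, which leaves out reads that map to several places or genes. Totals were 16452260 to 22664693 counts per library, and their number limits precision at low levels. Groups follow the labels; in shCdk8-2 cells the replicate numbers in the headers differ from those in the labels, which were used.

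Counts were analyzed with edgeR 4.0.16 (R 4.3.3) by TMM scaling, filterByExpr (minimum count 10, total 15) and its quasi-likelihood F-test, with p-values adjusted after Benjamini and Hochberg over all genes tested. The main fit held 12 libraries (cntrl in DMSO and SnxB, and both knockdown lines in DMSO, which share the estimate of the spread), and responses of other lines and interactions came from 18. Thresholds were an adjusted p of 0.05 and, where stated, 2-fold. Adjusted p-values without another name are from this test. RPKM used the exon length in the files. Gene lists are described by counts, with no set test.

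The comparison, its members and the lists were chosen with earlier results of these data known. Genes named were the 10 higher and 10 lower with the largest 2-fold changes at a mean of at least 1 CPM without overlap, the 5 of lowest p, up to 4 called members of each list, the 5 of highest RPKM, up to 5 per line by the interaction, and 14 fixed genes of the study's subject; further list members and the genes stated in the text were named after their values were seen. Alternatives were DESeq2 1.42.0 and its size factors, library totals, other filters and thresholds, glmTreat, the 6 cntrl libraries alone, a replicate block and leaving out each library; a correction for gene length was chosen after seeing the data. The fit was tested on simulated data. Some genes that the naming rule or a list covers are not reported here.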

Additional observations from a re-analysis of the deposited data

Results flagged for a closer look

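The SnxB response of these genes differed between a knockdown line and cntrl cells by the interaction test in edgeR (adjusted p under 0.05, 18 libraries), given as the difference of log2 fold changes. Both sets of differences use the same cntrl libraries. The genes were chosen among those called in cntrl cells, which favors a smaller response in the knockdown lines.

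In shCdk8-1 minus cntrl cells the largest difference was in Atp6v0a4, at -1.54 (adjusted p = 0.00304). Agt followed at -1.19 (adjusted p = 0.0209) and Thbs2 at -1.18 (adjusted p = 0.00324). Ccl7 differed by -0.893 (adjusted p = 0.00304), Kctd14 by -0.889 (adjusted p = 0.00452) and Adm by -0.726 (adjusted p = 0.000796). Cbr2 differed by -0.624 (adjusted p = 0.000796), Serpinf1 by -0.557 (adjusted p = 0.0264) and Ereg by -0.434 (adjusted p = 0.0125). Gas7 differed by -0.418 (adjusted p = 0.00452), Nptx1 by -0.316 (adjusted p = 0.0188), Acta2 by -0.308 (adjusted p = 0.0445), Col3a1 by -0.297 (adjusted p = 0.0359) and Slc16a3 by -0.271 (adjusted p = 0.0317). Cdkn1a differed by 0.498 (adjusted p = 0.00304), from a log2 fold change of -0.23 in cntrl cells to 0.27 in shCdk8-1 cells.

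Several of these genes had a higher level in DMSO in shCdk8-1 than in cntrl cells, and others a lower one. Agt went from 16.6 to 22.9 CPM in shCdk8-1 and from 1.2 to 3.77 CPM in cntrl cells. In shCdk8-1 cells its change was smaller on the log2 scale but larger in CPM. Thbs2 went from 74.1 to 67.6 CPM, beside 2.18 to 4.6 CPM in cntrl cells. Atp6v0a4 went from 6.97 to 8.54 CPM, beside 0.757 to 2.75 CPM, and Kctd14 from 45.3 to 48.2 CPM, beside 5.19 to 10.2 CPM. Atp6v0a4 and Kctd14 thus changed less in CPM as well in shCdk8-1 cells. In Nptx1, Ccl7, Ereg, Acta2, Serpinf1, Adm and Col3a1 the level in DMSO was lower in shCdk8-1 than in cntrl cells. It was 39.5 beside 479 CPM in Nptx1 and 11.8 beside 40.9 CPM in Ccl7. The part of the level in DMSO in these differences was not tested.

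In shCdk8-2 minus cntrl cells Atp6v0a4 differed by -1.46 (adjusted p = 0.0232), Acta2 by -0.545 (adjusted p = 0.000675), Cbr2 by -0.508 (adjusted p = 0.0177), Ereg by -0.426 (adjusted p = 0.0304) and Gas7 by -0.367 (adjusted p = 0.0371). These 5 genes passed the test in both lines, as did Pgbd5, named after its values were seen, with differences of -0.349 in shCdk8-1 and -0.309 in shCdk8-2 cells (adjusted p = 0.00666 and 0.0407).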

How the results depend on the processing

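The 40 genes past 2-fold became 2 with glmTreat, which tests the fold itself, 22 at an adjusted p under 0.01 and 103 at 1.5-fold, and 30 to 41 with each library left out. The 696 genes past the adjusted p became 340 at 0.01, and 418 to 607 with each library left out, under 1.5 times lower except without DMSO replicate 1 (457) or 2 (418). Of the 40, 9 had no adjusted p in DESeq2 and 4 lost the call there. The 189 genes of shCdk8-1 cells became 567 with no filter and 112 to 443 with each library left out (112 without shCdk8-1 DMSO replicate 1, 443 without shCdk8-1 SnxB replicate 1), and the 262 of shCdk8-2 cells 141 to 302, each of that line's libraries lowering it to 163 or less. The 39 interactions of shCdk8-1 became 61 in DESeq2, 389 with no filter and 13 to 42 with each library left out, and the 7 of shCdk8-2 became 19 in DESeq2, 44 with no filter and 1 to 10. The cause was not tested.

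Deviations of same-numbered cntrl libraries correlated at 0.0385, 0.0673 and -0.194, and those of differently numbered libraries at -0.19 to 0.155. With 3 libraries per group these values cannot decide whether the replicate numbers pair the libraries. In a fit with a replicate block the cntrl counts were 33 and 562, and the shCdk8-2 interactions were 11.

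Of the log2 fold changes of named genes, 12 changed sign. Egr1 was -0.48 without SnxB replicate 2 and up to 7.93 in the other leave-outs. Cdk8 was 0.0019 without DMSO replicate 1, and Ccnc was 0.017 without DMSO replicate 3 and 0.000556 without SnxB replicate 1. Med12 was -0.050 without SnxB replicate 1. Med13 was -0.013 with library totals, -0.0073 with the length correction, -0.0093 with that and the block, -0.019 without DMSO replicate 2 and -0.109 without SnxB replicate 1. Icam1 was -0.021 without DMSO replicate 2 and -0.193 without SnxB replicate 2. The opposite ends of the leave-out ranges were -0.0596 for Cdk8, -0.0269 for Ccnc, 0.131 for Med12, 0.0722 for Med13 and 0.186 for Icam1. At this depth, genes under 1 CPM rest on few counts per library.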
